A study of Mus musculus with 6 samples.

Results

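The 10 genes described here encode transporters that take up sugars, peptides and amino acids in the intestine, together with the sodium and proton exchanger that works beside them: *Slc5a1*, *Slc2a2*, *Slc2a5*, *Slc15a1*, *Slc6a19*, *Slc7a9*, *Slc3a1*, *Slc1a1*, *Slc7a8* and *Slc9a3*. They were taken by their symbols from the 34866 genes of the estimated count table, and all 10 were among the 16536 genes with enough counts to be tested. RNA was sequenced from adenomas excised from the intestine of C57BL/6J mice aged between 100 and 120 days, 3 libraries from mice of genotype Apc1322T/+ and 3 from mice of genotype ApcMin/+. Both genotypes carry a truncating mutation in 1 germline copy of *Apc*, the gene for a scaffold protein that holds β-catenin in check, and the truncated protein of *Apc1322T* is the longer of the 2. No Cre driver, drug or diet is named for these mice, and no normal mucosa is among the 6 libraries, so that the comparison is between the 2 kinds of adenoma only. According to the methods of the study, RNA extractions from the same mouse were as a rule pooled into a sample, and the position of the adenomas along the intestine is not given. The libraries held between 23132461 and 33518324 estimated counts.

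Absorptive enterocytes line the villi of the small intestine and take up nutrients through their apical brush border, using the sodium gradient that the basolateral sodium pump maintains, or a proton gradient. Sodium-coupled carriers bring in glucose and amino acids, a proton-coupled carrier brings in short peptides, and facilitative carriers and exchangers in the basolateral membrane pass the nutrients on to the blood. Several of the amino acid carriers reach the membrane only as a pair with a partner protein. These genes are switched on as cells leave the crypt and mature, and many differ in level between the proximal and the distal small intestine.

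In these adenomas all 10 transporters were expressed, but none differed between the genotypes by more than the spread between libraries. The level of 9 of the 10 was lower in *ApcMin* adenomas by the fitted fold change, among them the facilitative glucose carrier *Slc2a2* (log2 fold change -1.38, standard error 0.60) and the amino acid exchanger *Slc7a8* (-1.30, standard error 0.63), and *Slc1a1* alone was higher (0.52, standard error 0.44). *Slc15a1*, the peptide carrier, spanned 10.02-fold between the highest and the lowest library, and *Slc6a19* 5.90-fold. *Apc1322T* replicate 1 and *ApcMin* replicate 3 were the lowest 2 libraries for 9 of the 10 genes, and *Slc9a3* ran the other way.

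Sequence upstream of 3 of the genes is shown because they mark the ends of this pattern: *Slc15a1* varied most between libraries, *Slc3a1* followed it most closely, and *Slc9a3* was highest where the others were lowest. Each run is the 250 bases before the annotated start in RefSeq on GRCm38.p6, written in the direction of transcription. Capitals mark matches to 3 short motifs on either strand. These are CAAAGT, a core recognised by HNF4 nuclear receptors, AGATAA, recognised by GATA factors, and TATAAA, the core of the TATA box.
*Slc15a1*, chr14:121505255-121505504, minus strand: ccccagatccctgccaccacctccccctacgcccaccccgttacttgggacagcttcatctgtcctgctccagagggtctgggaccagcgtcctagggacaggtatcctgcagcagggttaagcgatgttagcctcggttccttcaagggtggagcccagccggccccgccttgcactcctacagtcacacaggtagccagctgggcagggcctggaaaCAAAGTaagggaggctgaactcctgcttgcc
*Slc3a1*, chr17:85028097-85028346, plus strand: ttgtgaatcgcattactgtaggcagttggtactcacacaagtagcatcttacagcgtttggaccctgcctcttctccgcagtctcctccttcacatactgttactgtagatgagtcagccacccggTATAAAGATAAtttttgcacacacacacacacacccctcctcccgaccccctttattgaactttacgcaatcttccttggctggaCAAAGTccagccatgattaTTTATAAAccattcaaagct
*Slc9a3*, chr13:74121163-74121412, plus strand: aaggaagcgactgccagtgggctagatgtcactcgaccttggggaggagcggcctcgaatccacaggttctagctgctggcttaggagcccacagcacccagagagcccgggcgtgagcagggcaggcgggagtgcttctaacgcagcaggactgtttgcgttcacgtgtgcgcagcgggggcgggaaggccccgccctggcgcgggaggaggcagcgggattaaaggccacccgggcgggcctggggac
In the *Slc3a1* run a TATAAA and an AGATAA match overlap in 1 stretch of capitals, and matches to TATAAA on both strands overlap in another. The *Slc9a3* run holds no match to these letters.

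A start was listed in RefSeq for all 10 genes, with 2 starts for *Slc7a9*. Upstream here means before the RefSeq start, which can differ from the GENCODE start. The windows of *Slc7a9* and *Slc6a19* lay inside the GENCODE spans given below. Those of *Slc2a5*, *Slc1a1* and *Slc7a8* reached partly into theirs. CAAAGT was found upstream of *Slc2a2*, *Slc15a1* and *Slc3a1*, against 12.6% of all 32851 promoters of the same length. AGATAA was found upstream of *Slc7a9*, from 1 of its starts, and of *Slc3a1*, against 9.99% of all promoters. TATAAA was found upstream of *Slc3a1* only, against 12.4% of all promoters. GTTAAT, recognised by HNF1 factors, and TTTATG, recognised by CDX factors, which 6.43% and 10.8% of all promoters hold, were found upstream of none of the 10. The members also differed in base composition. *Slc1a1* had 27 CpG dinucleotides in its window, *Slc9a3* 19, *Slc2a5* 15 and *Slc7a8* 14, and the others had between 2 and 7, where the median of all promoters was 6. A match describes letters in a window and does not show that a factor binds there.

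Values below are log2 CPM (counts scaled to library size by the TMM method, with a prior count of 2), and a negative log2 fold change denotes a lower level in *ApcMin* than in *Apc1322T* adenomas. Fold changes, their standard errors and 95% intervals come from the quasi-likelihood test of edgeR fitted over all 16536 genes, with Benjamini-Hochberg adjustment. The fit weighs libraries by their counts, so a fold change can differ from the difference between mean log2 CPM values. The exact permutation test over the 20 assignments of 6 libraries, two-sided, was also run for each gene and cannot give a p under 0.10. Coordinates are those of GENCODE M21 on GRCm38.

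*Slc5a1* (ENSMUSG00000011034, chromosome 5, 33104219 to 33162870) encodes the apical sodium-coupled carrier of glucose and galactose. Its log2 CPM was 8.03, 9.56 and 10.19 in *Apc1322T* replicates 1, 2 and 3, and 8.91, 9.19 and 7.80 in *ApcMin* replicates 1, 2 and 3. The 3 *ApcMin* libraries lay within or just under the range of the *Apc1322T* libraries. The means were 9.26 ± 1.11 and 8.63 ± 0.74 (SD, n = 3 each), and the log2 fold change was -0.76 (standard error 0.59, interval -2.20 to 0.67, adjusted p = 0.542), with an exact permutation p of 0.40.

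*Slc2a2* (ENSMUSG00000027690, chromosome 3, 28697903 to 28731359) encodes the facilitative carrier that lets glucose, galactose and fructose leave the enterocyte. Its values in *Apc1322T* replicates 1, 2 and 3 were 5.02, 7.19 and 7.64, and in the *ApcMin* replicates 5.54, 5.77 and 5.46. The *ApcMin* libraries were close to each other (5.59 ± 0.16, SD, n = 3) and sat between the low *Apc1322T* replicate 1 and the high replicates 2 and 3 (6.62 ± 1.40 over the 3). For *Slc2a2* the log2 fold change was -1.38 (interval -2.83 to 0.074, adjusted p = 0.342), and an exact permutation p of 0.40. Without *Apc1322T* replicate 1 it was -1.83 (adjusted p = 0.0396), and without *Apc1322T* replicate 3 it was -0.88 (adjusted p = 0.636).

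*Slc2a5* (ENSMUSG00000028976, chromosome 4, 150119283 to 150144169) encodes the apical fructose carrier. Its values were 5.11, 6.34 and 6.70 in the *Apc1322T* replicates and 5.48, 5.48 and 4.90 in the *ApcMin* replicates. *Apc1322T* replicates 2 and 3 stood above every *ApcMin* library, as for *Slc2a2*, and *Apc1322T* replicate 1 lay between *ApcMin* replicate 3 and the other two. The log2 fold change was -0.88 (standard error 0.40, interval -1.86 to 0.099, adjusted p = 0.359), and the exact permutation p was 0.30. In DESeq2's Wald test *Slc2a5* (adjusted p = 0.175) and *Slc2a2* (adjusted p = 0.296) were the 2 of the 10 with an unadjusted p under 0.05, against 11.5% of all genes given a p by that test, and 0 of the 10 had an adjusted p under 0.01, against 1.12%.

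*Slc15a1* (ENSMUSG00000025557, chromosome 14, 121459621 to 121505252, minus strand) encodes the apical proton-coupled carrier of di- and tripeptides. Its log2 CPM was 5.82, 7.90 and 8.18 in the *Apc1322T* replicates, and 6.79, 7.53 and 4.85 in the *ApcMin* replicates. *ApcMin* replicate 3 was the lowest library and *Apc1322T* replicate 3 the highest. In estimated counts these 2 libraries held 912.8 and 6619. Its SD within a genotype, pooled over both, was 1.34, higher than that of 97.7% of all tested genes. The log2 fold change of -0.85 had the widest interval of the 10, from -2.79 to 1.10 (adjusted p = 0.619, exact permutation p of 0.50).

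*Slc9a3* (ENSMUSG00000036123, chromosome 13, 74121457 to 74169442) encodes the apical exchanger that takes up sodium against protons, and so sustains the proton gradient that peptide uptake draws on. Its values were 8.74, 8.16 and 8.26 in the *Apc1322T* replicates and 8.01, 7.98 and 8.75 in the *ApcMin* replicates. Here *Apc1322T* replicate 1 and *ApcMin* replicate 3 were the highest libraries. The range was the narrowest of the 10 genes, 1.71-fold, and the log2 fold change was -0.12 (standard error 0.26, interval -0.74 to 0.51, adjusted p = 0.842, exact permutation p of 0.60). It moved between -0.42 without *ApcMin* replicate 3 and 0.084 without *Apc1322T* replicate 1. Set against *Slc9a3* in the same library, the log2 CPM of *Slc15a1* differed by -2.93, -0.26 and -0.082 in the *Apc1322T* replicates and by -1.21, -0.45 and -3.90 in the *ApcMin* replicates. The difference between the 2 genes thus moved over 3.82 log2 units between libraries, and it gave an exact permutation p of 0.50 between genotypes.

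*Slc6a19* (ENSMUSG00000021565, chromosome 13, 73679745 to 73704865, minus strand) encodes the main apical sodium-coupled carrier of neutral amino acids. It measured 6.44, 8.34 and 8.73 in the *Apc1322T* replicates and 7.59, 8.36 and 6.17 in the *ApcMin* replicates. The lowest library of each genotype was more than 1 log2 unit under the next. The log2 fold change was -0.50 (standard error 0.71, interval -2.23 to 1.24, adjusted p = 0.750, exact permutation p of 0.60). It moved between -1.08 without *ApcMin* replicate 2 and -0.057 without *Apc1322T* replicate 3.

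*Slc7a9* (ENSMUSG00000030492, chromosome 7, 35448796 to 35466036) and *Slc3a1* (ENSMUSG00000024131, chromosome 17, 85028376 to 85064236) encode the light and heavy chain of the apical carrier of cystine and dibasic amino acids, which is defective in cystinuria. *Slc7a9* measured 5.56, 6.91 and 6.92 in the *Apc1322T* replicates and 5.88, 6.40 and 5.44 in the *ApcMin* replicates. *Slc3a1* measured 5.87, 7.25 and 7.43, and 6.40, 7.01 and 5.27. Both chains were high in *Apc1322T* replicates 2 and 3, and both were lowest in *ApcMin* replicate 3. The log2 fold changes were -0.63 for *Slc7a9* (standard error 0.41, interval -1.63 to 0.38, adjusted p = 0.482) and -0.60 for *Slc3a1* (standard error 0.55, interval -1.93 to 0.73, adjusted p = 0.604). The exact permutation p was 0.30 and 0.50.

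*Slc1a1* (ENSMUSG00000024935, chromosome 19, 28835049 to 28913960) encodes the sodium-coupled carrier of glutamate and aspartate. Its log2 CPM was 2.84, 3.30 and 3.52 in the *Apc1322T* replicates, and 4.03, 4.21 and 2.55 in the *ApcMin* replicates. *ApcMin* replicates 1 and 2 stood above every *Apc1322T* library and replicate 3 under every one. It was the lowest of the 10 genes, with between 183 and 584 estimated counts per library. The log2 fold change was 0.52 (standard error 0.44, interval -0.53 to 1.57, adjusted p = 0.569, exact permutation p of 0.60), and it moved between 0.23 without *ApcMin* replicate 2 and 0.89 without *ApcMin* replicate 3.

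*Slc7a8* (ENSMUSG00000022180, chromosome 14, 54722209 to 54781946, minus strand) encodes the light chain of a basolateral exchanger of neutral amino acids. It measured 4.80, 6.76 and 7.02 in the *Apc1322T* replicates and 5.14, 5.75 and 4.25 in the *ApcMin* replicates. The gap between *Apc1322T* replicate 1 and replicate 2 was wider than that between any of the *ApcMin* libraries. The log2 fold change was -1.30 (interval -2.82 to 0.22, adjusted p = 0.372), and the exact permutation p was 0.30.

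**Figure D1:**
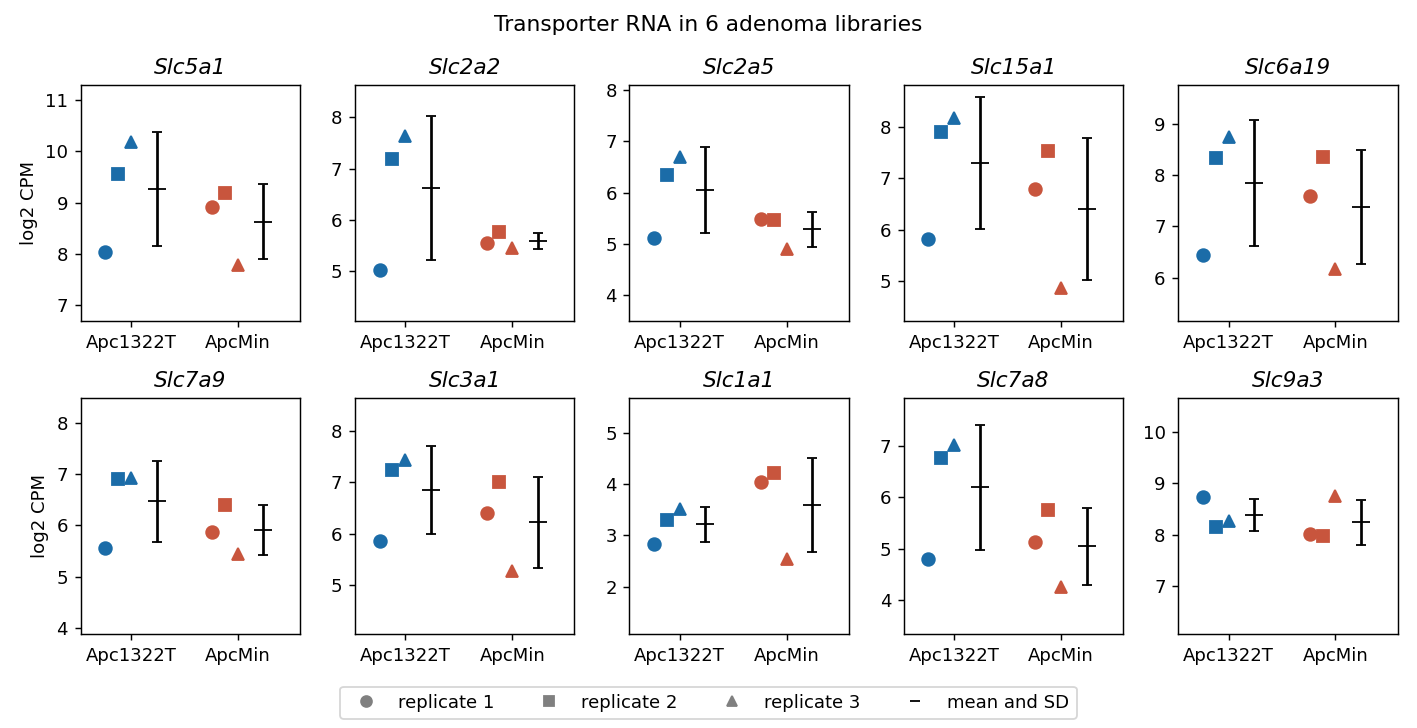
Log2 CPM of each of the 10 transporters in the 3 *Apc1322T* and 3 *ApcMin* libraries, with symbols for the replicate, and the mean and SD of each genotype beside the points. In 9 of the 10 panels *Apc1322T* replicate 1 and *ApcMin* replicate 3 are the lowest 2 points, and for *Slc9a3* they are the highest 2.

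As a group, 0 of the 10 transporters passed an adjusted p under 0.01, where 0% of all tested genes did, and 0 passed an adjusted p under 0.05 (0.00605% of all genes). At an unadjusted p under 0.05 edgeR called 0 of the 10, and 15.1% of all genes (7.60% with *ApcMin* lower). A log2 fold change under 0 was seen for 9 of the 10, against 47.6% of all genes, and the median of the 10 was -0.70, against 0.017 for all genes. These directions are not separate observations, as 8 of the genes moved together over the same libraries (median pairwise r of 0.949). That of *Slc9a3* changed sign in 3 fits that left out a library. The libraries of the genotypes overlapped for all 10, whereas they did not overlap for 21.0% of all genes (9.96% with *ApcMin* lower and 11.0% with *ApcMin* higher). The intervals of *Slc5a1*, *Slc2a2*, *Slc7a8*, *Slc15a1* and *Slc6a19* reached past a 4-fold lower level in *ApcMin* adenomas, so that a difference of that size lay within the error of 3 libraries a genotype.

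**Figure D2:**
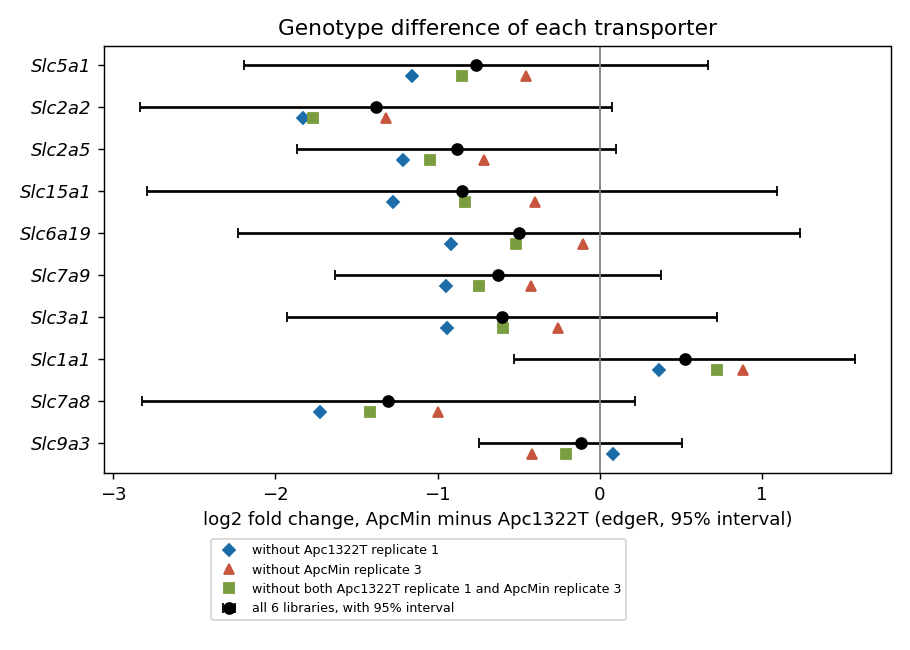
Log2 fold change of each transporter between *ApcMin* and *Apc1322T* adenomas, as points with 95% intervals from edgeR over all 6 libraries, and as coloured symbols with *Apc1322T* replicate 1, *ApcMin* replicate 3 or both left out. Every interval includes 0, and the points over all 6 libraries lie between -1.38 (*Slc2a2*) and 0.52 (*Slc1a1*). The fit with both left out was chosen after the values were seen.

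The libraries thus differed in a way that the genotype labels do not describe, which was noticed after the values were seen. *Apc1322T* replicate 1 and *ApcMin* replicate 3 were the lowest 2 libraries for 9 of the 10 transporters, and for 11.4% of all tested genes. *Apc1322T* replicate 3 was the highest library for 8 of the 10, and for 15.3% of all genes. Across the 8 genes other than *Slc1a1* and *Slc9a3*, *Apc1322T* replicate 3 exceeded replicate 1 by between 2.57-fold (*Slc7a9*) and 6.14-fold (*Slc2a2*). *ApcMin* replicate 2 exceeded replicate 3 by between 1.24-fold (*Slc2a2*) and 6.39-fold (*Slc15a1*). The Pearson correlation between these 8 genes over the 6 libraries ranged from 0.789 to 0.998 over 28 pairs, with a median of 0.949, the closest pair being *Slc15a1* and *Slc3a1*. The 8 were set apart after the values were seen, so this range partly describes the choice. With these 8, *Slc1a1* correlated between 0.173 (*Slc2a2*) and 0.721 (*Slc6a19*), and *Slc9a3* between -0.825 (*Slc6a19*) and -0.388 (*Slc2a2*). The 6 points of each pair share their libraries and depth, and the correlations are descriptions.

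Single libraries moved the other fold changes too. Over the 6 fits that each left out 1 library, *Slc5a1* ranged from -1.16 without *Apc1322T* replicate 1 to -0.25 without *Apc1322T* replicate 3. *Slc2a5* ranged from -1.21 to -0.54, and *Slc7a8* from -1.72 to -0.92, without the same libraries. *Slc15a1* ranged from -1.48 without *ApcMin* replicate 2 to -0.40 without *ApcMin* replicate 3, and *Slc3a1* from -1.05 to -0.26 without these. *Slc7a9* ranged from -0.95 without *Apc1322T* replicate 1 to -0.43 without *ApcMin* replicate 3. In none of these fits did any of the 10 reach an adjusted p under 0.01 in edgeR's quasi-likelihood test.

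With *Apc1322T* replicate 1 left out, 4 of the 10 genes had an unadjusted p under 0.05 (24.4% of all genes), and with *ApcMin* replicate 3 left out 1 did (9.87%). With both left out, a choice made after seeing the data, 7 of the 10 did (21.7% of all genes), and 0 passed an adjusted p under 0.01. These libraries were the lowest 2 for 9 of the 10 genes. Leaving them out narrows the spread within a genotype for these same genes, so the 7 are a description. With both left out the log2 fold changes were -1.77 for *Slc2a2* (adjusted p = 0.0399), -1.05 for *Slc2a5* (adjusted p = 0.0449), -1.42 for *Slc7a8*, -0.85 for *Slc5a1* and -0.83 for *Slc15a1*. *Slc1a1* then stood at 0.72, and the median of the 10 at -0.79.

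**Figure D3:**
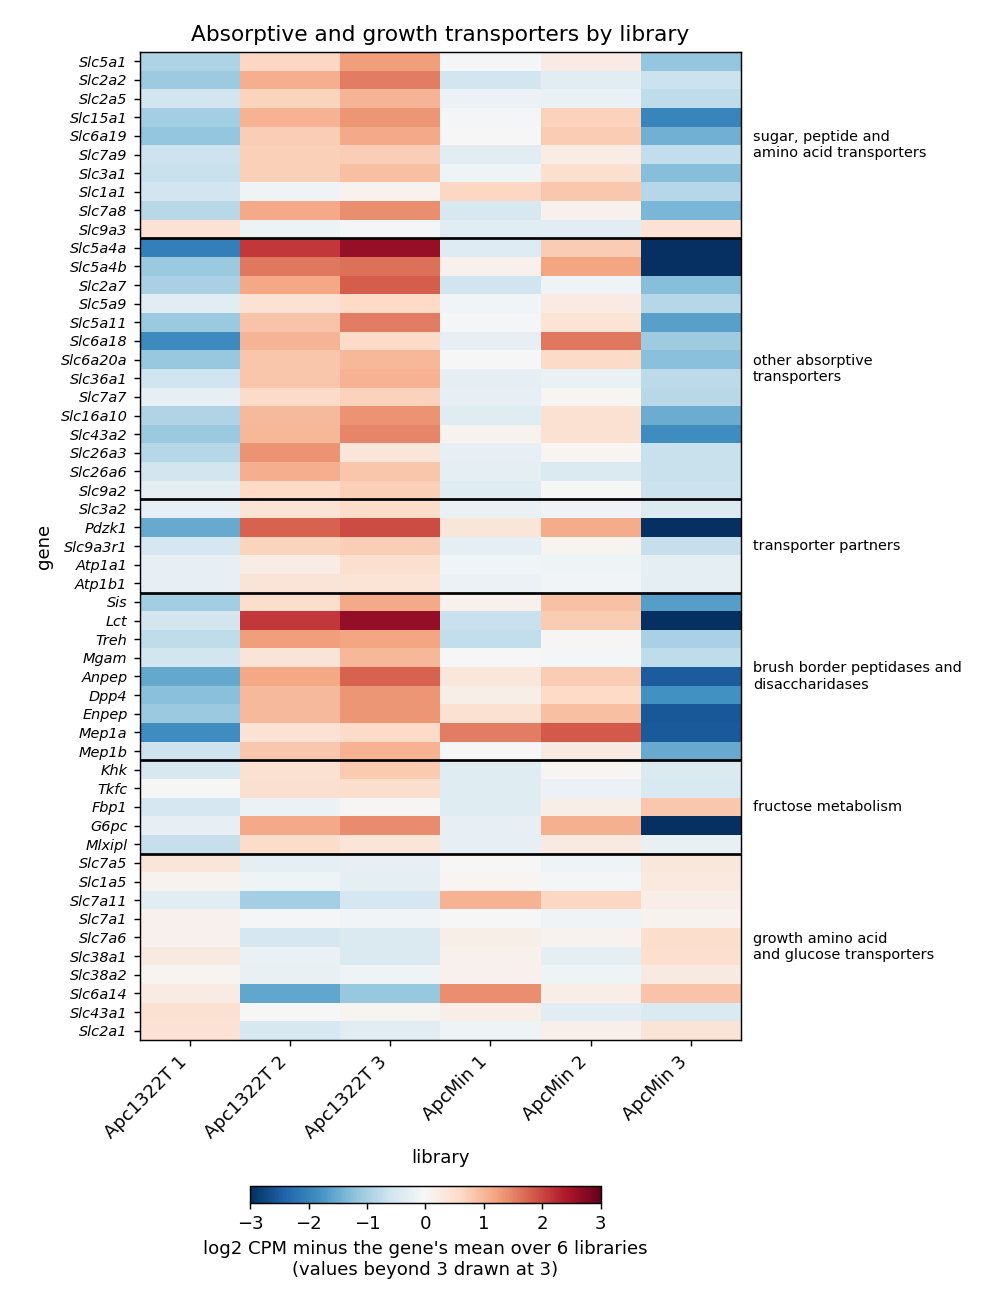
Log2 CPM of each gene minus its mean over the 6 libraries, for the 10 transporters at the top and genes of 5 further lists under them, with red above and blue under the mean. The columns of *Apc1322T* replicate 1 and *ApcMin* replicate 3 are blue for most absorptive transporters, partners and brush border enzymes, and pale or red for most growth transporters.

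Levels were compared between the genes as counts per length of the merged exons, scaled to the same sum over all genes in every library, in the manner of TPM. *Slc5a1* had the highest median over the 6 libraries (311), followed by *Slc9a3* (115), *Slc6a19* (113), *Slc3a1* (112), *Slc15a1* (72.3), *Slc7a9* (64.0), *Slc2a5* (31.5), *Slc7a8* (21.2), *Slc2a2* (21.0) and *Slc1a1* (2.62). Some neighbours in this order did not differ beyond their spread. *Slc5a1* exceeded *Slc9a3* in 4 of 6 libraries, as *Slc9a3* was the higher in *Apc1322T* replicate 1 and *ApcMin* replicate 3. *Slc9a3* exceeded *Slc6a19*, and *Slc6a19* exceeded *Slc3a1*, in 3 of 6 libraries each. *Slc15a1* exceeded *Slc7a9* in 4 of 6, and *Slc7a8* exceeded *Slc2a2* in 1 of 6. The other steps of the order were seen in 6 of 6 libraries. With the longest transcript as the length, *Slc9a3* and *Slc6a19* changed places and the other 8 kept theirs.

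**Figure D4:**
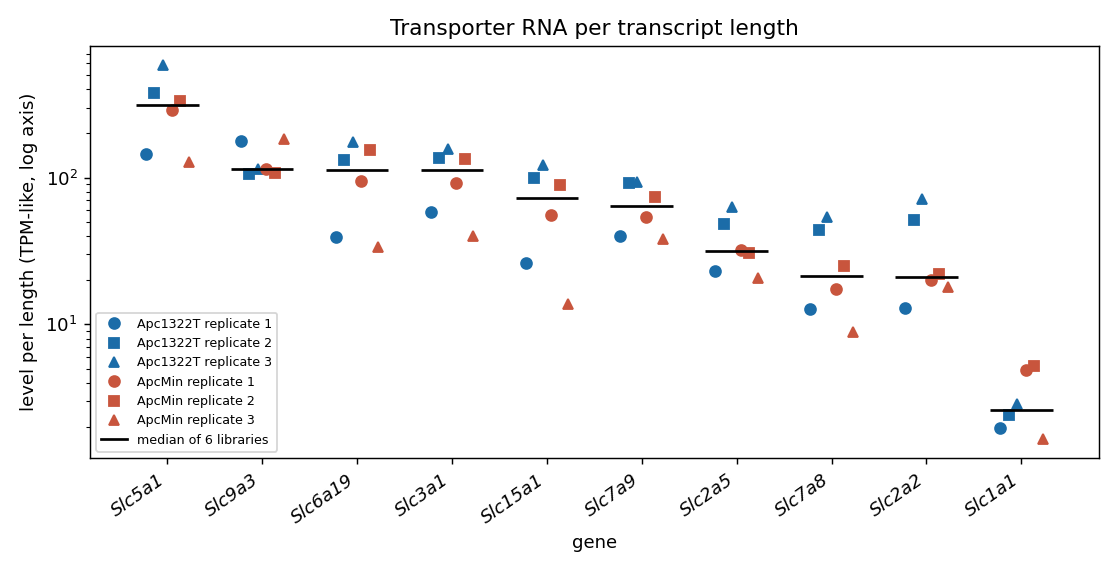
Level per length of each transporter in the 6 libraries on a log axis, ordered by the median, which is drawn as a bar. *Slc5a1* leads with a median of 311, *Slc1a1* is last with 2.62, and the libraries of *Slc15a1* spread the most.

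Partner genes were measured beside the carriers they serve. The 2 chains of the cystine carrier stayed close: *Slc7a9* minus *Slc3a1* was between -0.61 and -0.30 log2 CPM in 5 libraries and 0.18 in *ApcMin* replicate 3 (exact permutation p of 1.0 between genotypes). This closeness was not particular to the pair. *Slc5a1* minus *Slc6a19*, which are not partners, moved over 0.79 log2 units between libraries, as did *Slc7a9* minus *Slc3a1*. *Slc3a1* correlated more closely with *Slc15a1* (r = 0.998) than with *Slc7a9* (r = 0.962). *Slc3a2*, the heavy chain that pairs with *Slc7a8* and with several other light chains, moved less than its partner, over 0.97 log2 units against 2.77, and *Slc7a8* minus *Slc3a2* ranged from -2.53 in *ApcMin* replicate 3 to -0.73 in *Apc1322T* replicate 3 (exact permutation p of 0.30).

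*Cltrn*, whose product serves the *Slc6a19* carrier in the kidney, had between 1 and 5 counts per library and was not tested. Of the 6 partner genes tested, 0 passed the threshold and 6 had a log2 fold change under 0, with a median of -0.53. The scaffold gene *Pdzk1* had the largest (-1.12, standard error 1.21, adjusted p = 0.666), with 66 counts in *ApcMin* replicate 3 and 2502 in *Apc1322T* replicate 3. *Slc9a3r1*, which encodes the scaffold that binds the *Slc9a3* exchanger, had -0.66 (adjusted p = 0.413). Its libraries were ordered as those of the absorptive carriers, with 7.99 in *ApcMin* replicate 3 and 9.42 in *Apc1322T* replicate 3, and not as those of *Slc9a3*.

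**Figure D5:**
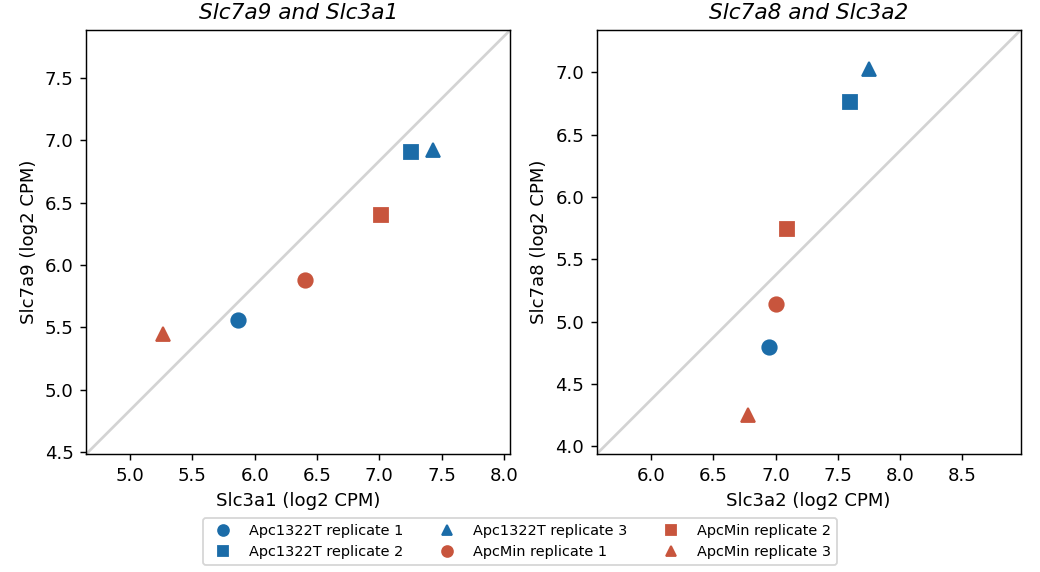
Log2 CPM of 2 carriers against that of their partner in each library, with a grey line of slope 1. *Slc7a9* and *Slc3a1* move over 1.48 and 2.16 log2 units, whereas *Slc7a8* moves over 2.77 and *Slc3a2* over 0.97.

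Of 14 other absorptive transporters, 0 passed the threshold, 13 had a log2 fold change under 0 and the median was -0.93. The 2 largest changes were those of *Slc5a4a*, a relative of *Slc5a1* (-2.11, standard error 1.28, adjusted p = 0.449), and *Slc2a7*, a hexose carrier (-1.68, standard error 0.70, adjusted p = 0.334). *Slc5a4a* rested on 16, 249 and 380 counts in the *Apc1322T* replicates and 72, 115 and 8 in the *ApcMin* replicates, so that *Apc1322T* replicate 1 and *ApcMin* replicate 3 were again the lowest, as they were for 12 of the 14. Among 9 brush border peptidases and disaccharidases, which release the sugars and peptides that these carriers take up, 0 passed and 8 had a log2 fold change under 0 (median -0.75). Lactase, *Lct*, had -2.24 (standard error 1.26, adjusted p = 0.425), with 193 counts in *ApcMin* replicate 3 and 17541 in *Apc1322T* replicate 3. Trehalase, *Treh*, had -1.29 (adjusted p = 0.340).

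Of 6 genes of fructose metabolism, through which the cargo of *Slc2a5* passes, 0 passed the threshold and 5 had a log2 fold change under 0 (median -0.63). *G6pc*, which encodes the phosphatase that frees glucose from glucose-6-phosphate, had -0.91 (standard error 0.94, adjusted p = 0.649). Of 10 transporters that supply dividing cells with amino acids and glucose, 0 passed and 8 had a log2 fold change over 0 (median 0.21). The largest were *Slc6a14* (1.54, standard error 0.58, adjusted p = 0.311), an amino acid carrier of broad range, and *Slc7a11* (1.25, standard error 0.28, adjusted p = 0.257), the light chain of the cystine and glutamate exchanger. The 3 *ApcMin* libraries of *Slc7a11* (4.09, 3.67 and 3.24 log2 CPM) lay above the 3 *Apc1322T* libraries (2.73, 2.02 and 2.56), and DESeq2's Wald test gave it an adjusted p of 0.00670. For 0 of these 10 genes were *Apc1322T* replicate 1 and *ApcMin* replicate 3 the lowest 2 libraries, and for 5 they were the highest 2, as they were for *Slc9a3* and for 11.9% of all genes.

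Among 11 enterocyte transcription factors, 0 passed the threshold and 10 had a log2 fold change under 0 (median -0.34). *Hnf4g*, a nuclear receptor of the enterocyte, had -0.74 (standard error 0.54, adjusted p = 0.523) and its relative *Hnf4a* -0.53 (standard error 0.20, adjusted p = 0.311). *Hnf4g* was 4.79, 6.45 and 6.52 in the *Apc1322T* replicates and 5.54, 5.82 and 4.39 in the *ApcMin* replicates, with *Apc1322T* replicate 1 and *ApcMin* replicate 3 lowest. These were the lowest 2 libraries for 3 of the 11 factors, for 1 of the 6 genes of fructose metabolism and for 1 of 8 enterocyte markers, against 11.4% of all genes, and for 8 of the 9 brush border enzymes and 6 of the 6 partner genes.

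The adenomas hold other cell types, and in bulk RNA fewer cells of a type and less RNA per cell cannot be told apart. All 8 pan-epithelial markers had a log2 fold change under 0 (median -0.37), for 6 of them the genotypes did not overlap with *ApcMin* lower (9.96% of all genes), and their summed CPM was between 13144 and 15322 in *Apc1322T* and between 10684 and 12344 in *ApcMin* libraries. Relative to the mean of these 8 markers in each library, the median difference of the 10 transporters was -0.26, and that of *Slc9a3* turned to 0.22. Both are differences between mean log2 CPM values of the genotypes. They are not edgeR fold changes, so the -0.26 is not on the same measure as the fitted median of -0.70. All 8 enterocyte markers were under 0 too (median -0.75), with sums between 18188 and 30122 and between 10164 and 21424. All 6 fibroblast markers (median 1.01, summed CPM 603.8 to 1523 and 982.5 to 3304), all 6 smooth muscle markers (median 0.69, summed CPM 126.9 to 255.2 and 276.3 to 401.9) and 5 of 6 immune markers (median 0.52, summed CPM 444.2 to 562.9 and 351.9 to 995.6) were over 0. With edgeR 0 genes of these lists passed the threshold. DESeq2's Wald test called *Cldn3* of the pan-epithelial list (adjusted p = 0.00916) and *Pdgfra* of the fibroblast list (adjusted p = 0.00650), where it called 1.12% of all genes. No marker of these lists was at 0 in any library. Their part in the transporter values was not tested.

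Markers of position also moved between libraries. *Fabp6*, the ileal bile acid binding protein, had 13, 13 and 14 counts in the *Apc1322T* replicates and 4560, 2105 and 31 in the *ApcMin* replicates (log2 fold change 6.95, standard error 1.72, adjusted p = 0.273 with edgeR and 0.000246 with DESeq2). *Slc10a2*, the ileal bile acid carrier, had 108, 116 and 195 counts and 2348, 1982 and 141. *ApcMin* replicates 1 and 2 were thus high for both, and these are the libraries in which *Slc1a1* was highest. The other 3 distal markers, *Slc51a*, *Slc51b* and *Cubn*, had log2 fold changes between -0.027 and 0.052. Between libraries they ranged over 2.77-fold, 3.19-fold and 9.23-fold. *Apc1322T* replicate 1 and *ApcMin* replicate 3 were the lowest 2 libraries for 4 of the 5 distal and 0 of the 6 proximal markers. This was so for 11.4% of all genes. Of the 6 proximal markers, *Cybrd1*, the duodenal ferric reductase, ranged over 15.6-fold, with 10.12, 9.54 and 7.16 log2 CPM in the *Apc1322T* replicates and 9.40, 6.73 and 10.69 in the *ApcMin* replicates, and the iron exporter *Slc40a1* over 7.51-fold in a similar order. *Gata4*, *Onecut2*, *Fabp1* and *Lct* had log2 fold changes of -0.46, -0.031, -1.32 and -2.24. The part of position in the transporter values was not tested.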

How the data were processed

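RNA-seq of adenomas was available for 3 *Apc1322T* and 3 *ApcMin* libraries, made with a strand-specific kit and sequenced as single-end reads. The authors quantified reads with Salmon on GRCm38.p6. What they deposited are estimated counts for each gene, not normalised, of which 31.5% are not whole (tolerance 0.0001). The annotation release behind them is not given in the sources used here. Libraries held between 23132461 and 33518324 estimated counts, so 3 counts correspond to between 0.0895 and 0.130 CPM, a floor that covers counting error alone. No pair of libraries agreed within sampling noise (chi-square per gene at least 24.3).

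Estimated counts were rounded to whole numbers. Symbols were matched to GENCODE M21 for 34652 of 34866 identifiers. Genes passing filterByExpr (minimum count 10, total 15) were normalised by TMM and tested by robust quasi-likelihood in edgeR 4.0.16 (R 4.3.3), with Benjamini-Hochberg adjustment over all genes and a threshold of 0.01. DESeq2 1.42.0, the tool of the study, and limma 3.58.1 (voom) were alternatives. The standard error is the log2 fold change over the root of its F statistic. On simulated counts in which 200 genes were shifted by 1.5 to 3 log2 units, edgeR recovered 98% among 16232 genes tested. Genes that passed the threshold without having been shifted numbered 5 with edgeR and 41 with DESeq2. The 200 were drawn from genes with a moderate or high level and low dispersion. The share therefore does not describe the power for genes as variable as most of the transporters. The labels do not say that each library is from another mouse, so p-values measure the spread between these samples.

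The 10 transporters, the further lists and the tests were chosen with earlier results of these data known. Named were the 10 transporters, in each list of related genes every gene past the threshold and otherwise the 2 with the largest change, *Slc3a2* and *Cltrn*, the position markers, and the 5 genes most alike in pattern. Some genes under this rule are not reported here. *Slc9a3r1* was among the 2 largest of its list. The alternatives were 2 other normalizations, other tests, filters and prior counts, scaling to pan-epithelial markers, other lengths, each library left out, and the replicate number as a block.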

Additional observations from a re-analysis of the deposited data

How the results depend on the processing

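All 15 alternatives in which genes were called gave 0 of the 10 transporters. The threshold was an adjusted p under 0.01, except where the main fit was read again at 0.05. These alternatives include the fit without both *Apc1322T* replicate 1 and *ApcMin* replicate 3, chosen after the values were seen. The log2 fold change of *Slc9a3* changed sign in 3 fits that left out a library (*Apc1322T* replicate 1, *ApcMin* replicate 1 or *ApcMin* replicate 2) and ranged from -0.42 to 0.084 over the 6 such fits. Relative to the pan-epithelial markers, the difference between its mean log2 CPM values was 0.22. The other 9 kept their direction in each alternative. Leaving out each library in turn moved the median of the 10 between -1.05 and -0.38. The count of all genes called was 194 with DESeq2, 1 with no filter on low counts, 1 at an adjusted p under 0.05, and between 0 and 1 with each library left out. In the related lists and marker lists DESeq2 called 5 genes (*Fabp6*, *Agr2*, *Slc7a11*, *Pdgfra* and *Cldn3*, named after their values were seen). Of all 17346 genes given an adjusted p by DESeq2, 1.12% were called. In the edgeR fits, leaving out each library gave between 0 and 1 gene of these lists (*Fabp6*, without *ApcMin* replicate 3). The causes were not tested. The replicate numbers did not pair the libraries (correlations of deviations -0.043, 0.34 and -0.65), and with the replicate block 0 genes and 0 transporters were called and the median of the 10 was -0.60. Counting error is small at these depths, and the spread over 3 libraries a genotype limits the precision.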

Other observations

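The genes outside the lists whose level over the 6 libraries was most like the mean standardized level of the 10 transporters were *Smim24* (Pearson r = 0.998), *Ccdc93* (0.997), *Rab11fip3* (0.996), *Myo1a* (0.996), which encodes a myosin of the brush border, and *Spink1* (0.996), which encodes a trypsin inhibitor. They were chosen for this likeness among 8670 genes with a mean log2 CPM of at least 4, so the values describe the choice and carry no p. Leaving out the 2 libraries farthest from the median gave r between 0.994 and 0.998. *Spink1* ranged over 2.55 log2 units, from 5.01 in *ApcMin* replicate 3 to 7.56 in *Apc1322T* replicate 3, and *Ccdc93* over 0.53.

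Secretory lineages were measured as well. All 6 goblet markers had a log2 fold change under 0 (median -0.53), and *Apc1322T* replicate 1 and *ApcMin* replicate 3 were the lowest 2 libraries for 5 of the 6. All 5 Paneth markers were over 0 (median 0.56), and the 7 enteroendocrine markers had a median of -0.17 and the 6 stem cell markers of -0.14. In edgeR's quasi-likelihood test 0 genes of these 4 lists passed an adjusted p under 0.01. At an unadjusted p under 0.05 there were 3 of 6 goblet, 1 of 5 Paneth, 0 of 7 enteroendocrine and 2 of 6 stem cell markers, against 15.1% of all genes. The 2 stem cell markers went in opposite directions, *Lgr5* with a log2 fold change of -0.58 and *Olfm4* with 0.87. DESeq2's Wald test called 1 gene of the 4 lists at an adjusted p under 0.01, the goblet marker *Agr2* (0.00201), against 1.12% of all genes.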
